A study of Mus musculus with 6 samples.

Results

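Wnt signalling genes were followed in lung RNA-seq libraries of 12-month-old mice. The 49 genes were taken from a fixed list of symbols, out of 25860 genes in the count table, and were split by role. They comprise 10 ligands, 17 receptors and co-receptors, 13 secreted regulators, 7 feedback and target genes, the ligand acyltransferase gene Porcn and the effector gene Ctnnb1. All 49 were present in the table.

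The study looked for expression differences behind the frequent lung carcinomas of RAG1-/- Sgo1-/+ mice. Total RNA came from untreated lung that looked normal, with 3 mice per genotype. Replicates 1, 2 and 3 are RAG1-/- and replicates 4, 5 and 6 are RAG1-/- Sgo1-/+. Both groups lack RAG1, the recombinase needed for mature T and B cells, so the controls carry that deletion too. The compared group also has 1 functional copy of Sgo1 (Shugoshin-1), a protector of sister chromatid cohesion, in every cell of the body. The mice were F2 animals of RAG1-/- by Sgo1-/+ crosses on a C57BL/6 background, of both sexes.

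Wnt ligands are lipid-modified by Porcn, leave the cell and bind Frizzled receptors together with the co-receptors Lrp5 or Lrp6. In the canonical branch this protects β-catenin from a destruction complex, and β-catenin with TCF/LEF factors then turns on target genes, several of which damp the signal. Secreted antagonists hold ligands or co-receptors back, whereas R-spondins with Lgr receptors keep Frizzled at the surface. In adult lung the pathway is known for its part in the upkeep of alveolar type 2 cells and in repair.

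The 6 libraries held between 3205822 and 9366774 counts, 1 library per mouse. Values are given as CPM, counts per 1000000 counts of the library, and 3 counts were worth 0.320 to 0.936 CPM. Of all counts from 1 to 20 in the table, 80.5% were even numbers, so both ends of a read pair may have been counted. Marker genes of alveolar type 2 cells, airway epithelium and endothelium were abundant in every library. Sgo1 had 0 to 6 counts per library (6, 2 and 4 against 6, 0 and 2), too few to check the genotype labels, and Rag1 had 8 to 24 counts. Xist was at 7717 counts in replicate 1 and at 4 to 8 in the others, so 1 control and no RAG1-/- Sgo1-/+ mouse had this female transcript. Replicate 2 held 1853 counts of the immunoglobulin gene Igkc against 0 to 8 elsewhere, which goes against the RAG1-/- label of that library, so replicate 2 stands for the library labelled so throughout. Summed macrophage markers reached 6627 CPM in replicate 6 against 428 to 851 CPM elsewhere, and summed adipocyte markers 961 CPM in replicate 1 against 76.9 to 155 CPM elsewhere. The counts of Wnt and pathway genes under an unadjusted P are therefore also given without replicates 2 and 6.

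In these lungs no Wnt gene was called as different between the groups after adjustment for all genes tested. The summed levels of each role overlapped between the genotypes. Of the 49 genes, 44 passed the filter of 10 counts summed over the libraries. By edgeR's quasi-likelihood test with Benjamini-Hochberg adjustment, 0 of 44 passed an adjusted P of 0.05 with at least a 2-fold change, against 0.00% of the 17231 genes tested. The smallest adjusted P was 0.832. In simulated data this rule called 32% of the genes changed 2-fold, so a gene that was not called may still differ. At an unadjusted P under 0.05 there were 5 of 44 (11.4%), against 5.66% of all genes tested. Wnt4, Lrp5 and Porcn had the higher value in RAG1-/- Sgo1-/+ lungs, 3 of 44 against 3.15% of all genes for that direction, and Sfrp4 and Rspo3 the lower. With a change of at least 2-fold as well, Sfrp4 and Rspo3 were left, 2 of 44 against 1.35% of all genes and 0.696% for lower genes alone. The libraries of the groups did not overlap in CPM for 6 of 44 Wnt genes (13.6%), against 11.8% of all genes, and Lgr6 was the gene added to those 5. The 3 lower genes of the 6 compare with 5.54% of all genes for that direction, and the 3 higher genes with 6.24%. The median log2 fold change over the 44 was 0.02, with 24 above 0 and 20 below, against a median of 0.03 and 54.9% above 0 over all genes tested. With 3 mice in each group the smallest P an exact permutation test can give is 0.1. DESeq2 called 0 Wnt genes after adjustment, and 3 at an unadjusted P under 0.05 (Sfrp4, Rspo3 and Porcn). Without replicate 2, 2 genes were under that P (Sfrp4 and Rspo3), without replicate 5, 3 genes (these and Wnt9a), and without replicates 2 and 6 together, 2 genes (Wnt4 and Rspo3). The share of all genes under that P was counted for the edgeR fit to all 6 libraries alone.

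**Figure D1:**
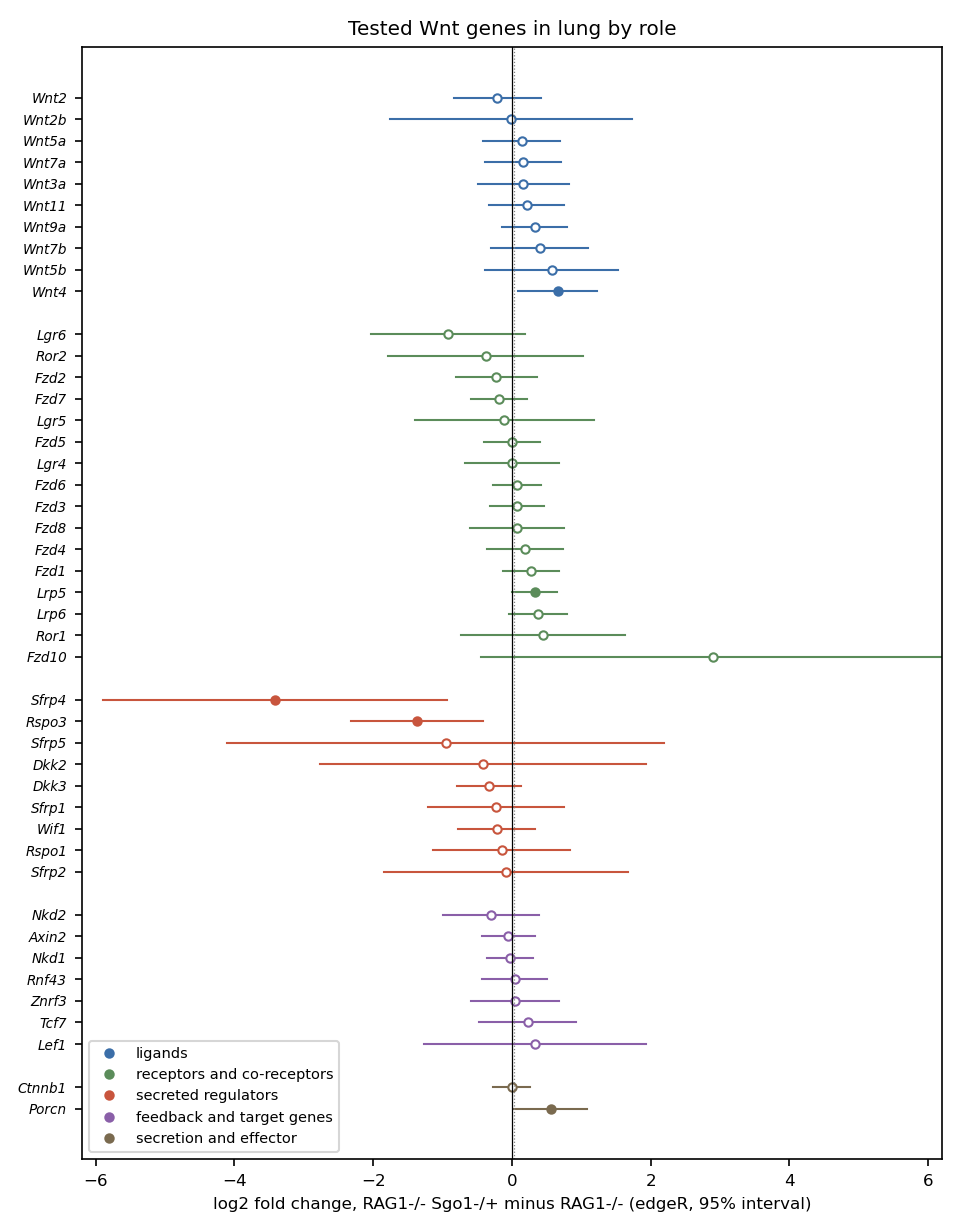
Log2 fold change (RAG1-/- Sgo1-/+ minus RAG1-/-) of the 44 tested Wnt genes, ordered within each role. Bars are 95% intervals of the edgeR fit, filled points have an unadjusted P under 0.05, the dotted line is the median of all genes, and the upper end of the Fzd10 bar (6.24) lies past the axis. All 9 secreted regulators lie to the left of 0, Sfrp4 at -3.41 and Rspo3 at -1.37. Limma-voom, and edgeR without replicate 3, put Sfrp1, Sfrp2 and Rspo1 to the right. The 7 feedback and target genes straddle 0.

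Summed over the 10 ligands the level was 162 to 193 CPM in RAG1-/- and 179 to 215 CPM in RAG1-/- Sgo1-/+ lungs. The 17 receptors and co-receptors summed to 399 to 475 CPM against 430 to 513 CPM, and the 7 feedback and target genes to 166 to 204 CPM against 171 to 201 CPM. In each role the ranges of the groups overlap. The 13 secreted regulators varied most within a group, from 124 to 400 CPM in RAG1-/- and from 191 to 279 CPM in RAG1-/- Sgo1-/+ lungs. RNA of whole lung was measured, so fewer cells of a type and less RNA per cell cannot be told apart here.

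To compare levels between genes, CPM was divided by the summed exon length of each gene, in kilobases. On this scale Ctnnb1, the gene of β-catenin, was far above the other 48, at a mean level of 244 CPM per kb over the 6 libraries. Rspo1 followed at 36.5 CPM per kb, then Dkk3 and Sfrp2 at 23.0 CPM per kb each and Nkd1 at 20.4 CPM per kb. Among the receptors Fzd7 (16.8 CPM per kb), Fzd6 (15.2 CPM per kb) and Fzd1 (11.6 CPM per kb) had the highest levels. The ligands were lower, and 5 of the 10 were close together, with levels of 8.83 CPM per kb for Wnt3a, 8.31 for Wnt7a, 8.26 for Wnt2, 8.04 for Wnt9a and 7.59 for Wnt11. The library values of these 5 overlap on this scale. Wnt5a, Wnt7b, Wnt4, Wnt2b and Wnt5b followed at 3.10 to 1.24 CPM per kb. At the low end Fzd9, Frzb, Rspo2 and Rspo4 had 4 to 8 counts over all libraries, and Dkk1 had 0, which allows up to 0.320 to 0.936 CPM per library.

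**Figure D2:**
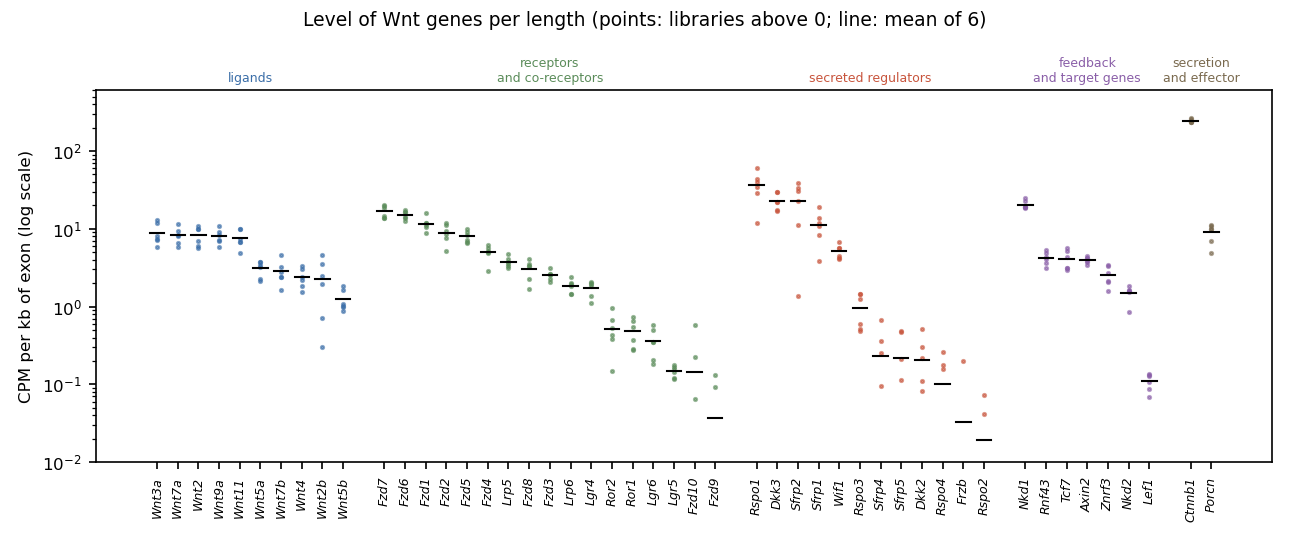
Level of each Wnt gene on a log axis, as CPM per kilobase of exon, with 1 point per library above 0, a line at the mean of all 6 libraries, and colours by role. Libraries at 0 cannot be drawn on a log axis, so Dkk1 is left out. Ctnnb1 at a mean of 244 CPM per kb stands above every other gene, and Rspo1, Dkk3, Sfrp2 and Nkd1 come next.

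Among the ligands, 8 of 10 had a log2 fold change above 0, beside 54.9% of all genes tested, and the median was 0.19. Only Wnt4 had an unadjusted P under 0.05, 1 of 10 beside 5.66% of all genes tested. Wnt4, a ligand that can signal by canonical and other branches, stood at 7.69, 6.47 and 9.23 CPM in the RAG1-/- replicates. In the RAG1-/- Sgo1-/+ replicates it stood at 14.1, 12.8 and 9.98 CPM. The groups did not overlap, but the lowest RAG1-/- Sgo1-/+ library was close to the highest control. The edgeR log2 fold change was 0.66 ± 0.26 (SE, n = 3 per group, unadjusted P = 0.0275, adjusted P = 0.832), with a 95% interval of 0.09 to 1.23. With 1 library left out at a time the value ranged from 0.55 to 0.80.

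Wnt2 is made by lung fibroblasts and takes part in lung growth in the embryo. It measured 12.9, 24.6 and 22.7 CPM in the controls and 22.2, 13.7 and 15.6 CPM in RAG1-/- Sgo1-/+ lungs, and the groups overlapped. Wnt7a, a ligand of epithelium, gave 29.9, 26.3 and 18.5 CPM against 36.8, 21.1 and 25.6 CPM. Wnt3a gave 32.5, 16.0 and 20.3 CPM against 35.6, 19.6 and 22.5 CPM. Their log2 fold changes of 0.16 each were smaller than their SEs of 0.24 and 0.29. The remaining ligands Wnt5a, Wnt11, Wnt9a, Wnt7b and Wnt5b had log2 fold changes of 0.14, 0.21, 0.33, 0.40 and 0.57, and each 95% interval included 0.

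**Figure D3:**
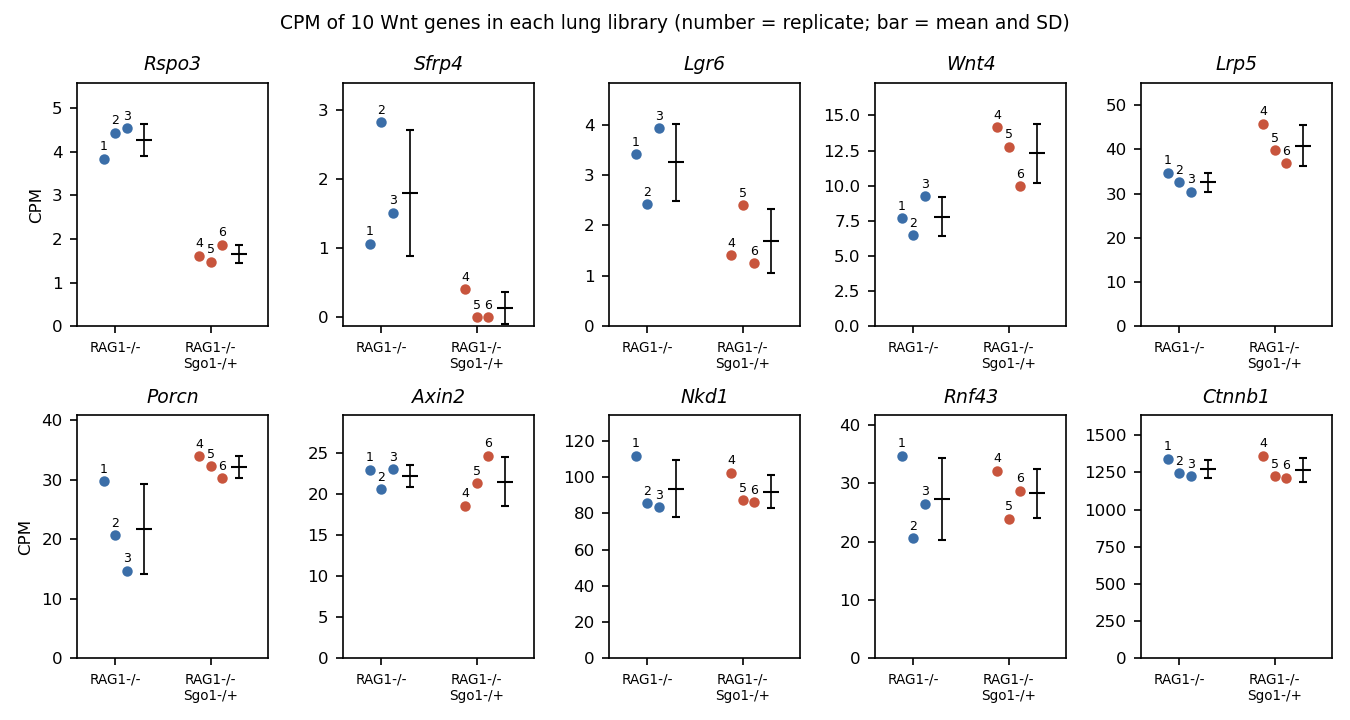
CPM of 10 Wnt genes in each of the 6 libraries, with replicate numbers and the mean and SD of each group of 3 mice. The vertical axes begin at 0, or just under it for Sfrp4. Wnt4, Lrp5 and Porcn lie higher in every RAG1-/- Sgo1-/+ library and Sfrp4 and Rspo3 lower, whereas Axin2 overlaps.

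Of the 17 receptors and co-receptors 16 were tested, 11 above and 5 below 0, with a median log2 fold change of 0.07. Lrp5, a co-receptor of the canonical branch, was the 1 gene of 16 with an unadjusted P under 0.05, beside 5.66% of all genes tested. It measured 34.7, 32.5 and 30.4 CPM in RAG1-/- and 45.9, 39.8 and 36.8 CPM in RAG1-/- Sgo1-/+ lungs. The groups were apart, with a gap that was small beside the level. Its log2 fold change was 0.33 ± 0.14 (SE, n = 3 per group, edgeR unadjusted P = 0.0451, adjusted P = 0.832). Its paralog Lrp6 gave 19.6, 19.8 and 26.6 CPM against 33.1, 27.8 and 24.9 CPM, which overlapped, and a log2 fold change of 0.38 ± 0.19 (SE, n = 3 per group, edgeR unadjusted P = 0.068).

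Fzd7 and Fzd6 had the highest levels of the Frizzled receptors. Fzd7 gave 62.3, 89.3 and 92.3 CPM in RAG1-/- and 84.4, 61.7 and 67.1 CPM in RAG1-/- Sgo1-/+ lungs, and Fzd6 gave 68.4, 79.6 and 65.7 CPM against 60.8, 80.2 and 83.9 CPM. The groups overlapped in both, and the log2 fold changes were -0.19 ± 0.18 and 0.07 ± 0.15 (SE). For 11 of the 16 tested receptors the 95% interval lay within a 2-fold change in either direction, Fzd1 to Fzd8, Lrp5, Lrp6 and Lgr4. Lgr6, an R-spondin receptor, was at 3.42, 2.42 and 3.93 CPM in the controls against 1.41, 2.41 and 1.25 CPM. The lowest control library barely exceeded the highest RAG1-/- Sgo1-/+ library, and the log2 fold change was -0.92 with a 95% interval of -2.03 to 0.19. The other R-spondin receptors Lgr4 and Lgr5 had values of 0.01 and -0.11. Fzd10 had 2 counts over the 3 controls and 10 over the RAG1-/- Sgo1-/+ libraries, a ratio of 7.72 with a counting interval of 1.64 to 72.5 (95%, exact binomial), or 0.864 to 365 with counts halved, and replicates 2, 3 and 4 were at 0.

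Every tested secreted regulator, 9 of 9, had a log2 fold change below 0 by edgeR, with a median of -0.33, but limma-voom put Sfrp1, Sfrp2 and Rspo1 above 0. The median was -0.23 with Sfrp4 and Sfrp5, which are near the counting floor, put at their bounds. For Sfrp4 the bound takes 3 counts in each RAG1-/- Sgo1-/+ library, and Sfrp5 was set to 0. Without replicate 3 edgeR also put Sfrp1, Sfrp2 and Rspo1 above 0, at 0.26, 0.50 and 0.36. Without replicate 1 it put Dkk2 at 0.94, and Sfrp5 had 13 counts in all. In this role 2 genes had an unadjusted P under 0.05, against 2.52% of all genes tested for that direction. Both were singled out by the study from these same libraries, so their values here are not independent evidence of a direction. The study also compared Sgo1-/+ with wild-type lungs, from other mice with RAG1 intact. There it reported lower Rspo3 transcript by quantitative PCR, less SFRP4 protein and more β-catenin protein. Those mice are not part of the data used here. Sfrp4 and Rspo3 act in opposite ways in textbook accounts. Sfrp4, secreted frizzled-related protein 4, binds ligands away from Frizzled, whereas Rspo3 raises the amount of Frizzled at the cell surface.

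Sfrp4 was counted 10, 14 and 10 times in the RAG1-/- libraries and 2, 0 and 0 times in the RAG1-/- Sgo1-/+ libraries. In CPM these were 1.07, 2.83 and 1.51 against 0.404, 0 and 0. The groups did not overlap, and the whole difference rested on 36 counts. The RAG1-/- Sgo1-/+ libraries were all near the counting floor. With 3 counts put in each of them, the RAG1-/- mean was 2.58-fold higher. The fitted log2 fold change was -3.41 ± 1.11 (SE, n = 3 per group, edgeR unadjusted P = 0.0118, adjusted P = 0.832), with a 95% interval of -5.89 to -0.94. Pooled counts gave a ratio of 11.0 (RAG1-/- over RAG1-/- Sgo1-/+) with a counting interval of 2.82 to 94.6 (95%, exact binomial). If both ends of each pair were counted, the same ratio rests on 17 against 1 and its interval is 1.73 to 460. Without 1 library at a time the fitted value ranged from -6.40 to -2.80, and without replicates 2 and 6 together the gene was no longer under an unadjusted P of 0.05.

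Rspo3 was counted 36, 22 and 30 times in RAG1-/- and 8, 8 and 6 times in RAG1-/- Sgo1-/+ lungs. The CPM values were 3.84, 4.44 and 4.54 against 1.62, 1.48 and 1.87. The groups were apart, at 4.28 ± 0.38 against 1.66 ± 0.20 CPM (SD, n = 3 each). With 6 to 8 counts per RAG1-/- Sgo1-/+ library, the small SD there says little of agreement between mice. Pooled counts gave a ratio of 2.59 (RAG1-/- over RAG1-/- Sgo1-/+). Its counting interval was 1.61 to 4.34 (95%, exact binomial), or 1.32 to 5.56 with counts halved. The log2 fold change was -1.37 ± 0.43 (SE, edgeR unadjusted P = 0.00949, adjusted P = 0.832), with a 95% interval of -2.32 to -0.42. It ranged from -1.45 to -1.29 with 1 library left out at a time, and without replicates 2 and 6 the unadjusted P was still under 0.05. Exons of Rspo3 share 404 bases with the antisense gene Gm48159 in GENCODE M21, and the kit does not keep strand, so reads of that stretch cannot be told apart.

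The other R-spondins and antagonists did not separate the groups. Rspo1, the R-spondin with the highest level here, gave 22.7, 83.4 and 117 CPM in the controls and 77.4, 56.3 and 67.4 CPM in RAG1-/- Sgo1-/+ lungs. Sfrp1 gave 16.7, 60.2 and 82.9 CPM against 47.3, 36.7 and 51.8 CPM, and Sfrp2 gave 2.99, 66.7 and 82.9 CPM against 49.3, 24.1 and 71.1 CPM. All 3 were lowest in RAG1-/- replicate 1 and next lowest in RAG1-/- Sgo1-/+ replicate 5. Their 95% intervals reached past a 2-fold change in at least 1 direction, -1.13 to 0.84 for Rspo1, -1.21 to 0.75 for Sfrp1 and -1.84 to 1.68 for Sfrp2. Dkk3, a divergent member of the Dickkopf family, gave 59.0, 100.01 and 99.4 CPM against 73.9, 57.2 and 74.9 CPM, a log2 fold change of -0.33 ± 0.21 (SE). Wif1, a ligand-binding inhibitor, had -0.22 ± 0.25 (SE), and Sfrp5 and Dkk2 had at most 18 counts in any library.

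The library order of Sfrp1, Sfrp2, Rspo1 and the ligand gene Wnt2b resembled that of mesothelial markers and of some fibroblast markers, a pattern noticed after the values were seen. Mesothelium is the cell layer that covers the lung surface, and Upk3b, Lrrn4, Wt1, Msln and Upk1b are markers of it. Upk3b stood at 14.1, 374 and 459 CPM in RAG1-/- and at 282, 147 and 291 CPM in RAG1-/- Sgo1-/+ lungs. The order of the 6 libraries was identical for Sfrp1 and Upk3b, and identical for Sfrp2 and Lrrn4. Wnt2b, expressed in mesothelium and mesenchyme, ran from 1.28 CPM in replicate 1 through 8.08 and 19.2 CPM in the other controls, and was 15.0, 2.96 and 10.3 CPM in RAG1-/- Sgo1-/+ lungs.

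A rule then asked for a level in replicate 1 of at most 1/2 of that in replicates 2, 3, 4 and 6, with replicate 5 next lowest. It was met by 4 of 44 Wnt genes (9.09%), 5 of 6 mesothelial markers and 0.905% of all genes tested. The rule was set after the values of these markers and genes were seen, so their shares beside that of all genes are no test. The exception among the markers was Krt19, which airway epithelium also makes. Summed over the 6 markers the level was 373 to 1361 CPM in RAG1-/- and 594 to 1098 CPM in RAG1-/- Sgo1-/+ lungs, and no marker of the 6 was at 0 in any library. Replicate 1, the lowest library in this order, was also the only one high in Xist and had the highest summed adipocyte markers. The part of mesothelium, of sex or of other tissue in the levels of these 4 Wnt genes was not tested. Of the 12 fibroblast markers 1 met the same rule, Dcn, which encodes the matrix proteoglycan decorin, at 129, 493 and 590 CPM in RAG1-/- and 354, 230 and 325 CPM in RAG1-/- Sgo1-/+ lungs. Col3a1 and Mfap5 also had replicate 1 lowest and replicate 5 next, which makes 3 of 12 without the limit on the gap. Summed fibroblast markers were 2751 to 4159 CPM against 2398 to 3564 CPM and none was at 0, and their part in these Wnt genes was not tested. Within each group Rspo3 had the library order of Upk3b, with replicate 3 above 2 above 1 and replicate 6 above 4 above 5. In replicates 4, 5 and 6 this order rests on 8, 8 and 6 counts, where 1 count is worth 0.185 to 0.312 CPM. Replicates 4 and 5 held the same count and differ by depth alone, so the order there is not resolved. Across the groups the orders differed, since Rspo3 in replicate 1 (3.84 CPM) was above every RAG1-/- Sgo1-/+ library. The part of mesothelium or fibroblasts in the lower Rspo3 and Sfrp4 values was not tested.

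**Figure D4:**
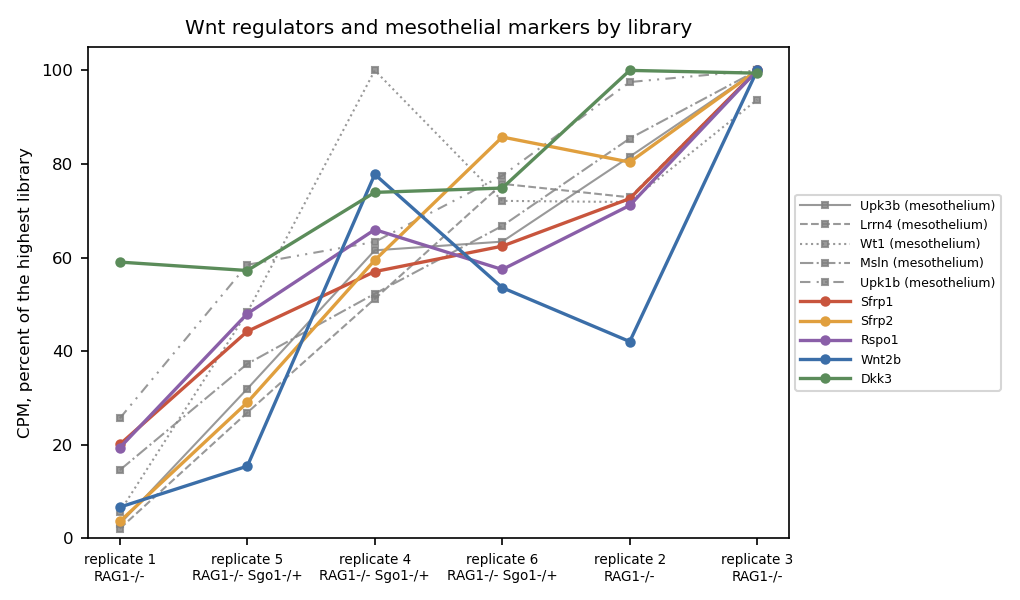
CPM of 5 Wnt genes and 5 mesothelial markers in the 6 libraries, as percent of the highest library of each gene, with libraries ordered from the lowest to the highest Upk3b level. Lines join the values of 1 gene and carry no time order. Sfrp1, Sfrp2, Rspo1 and Wnt2b are lowest in RAG1-/- replicate 1 and next lowest in RAG1-/- Sgo1-/+ replicate 5, as are the markers, while Dkk3 is lowest in replicate 5 and varies less.

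Promoters of 3 genes that share this library order are shown, as the 250 bases before the start site in RefSeq (GRCm38.p6), to set beside each other. They were searched on both strands for a TCF/LEF motif, read as CTTTG with 2 more letters after it that are each A or T (4 forms, 7 letters long). Matches would be in capitals, and these windows hold none. Of all 32851 windows of 300 bases (250 before and 50 after the start), 16.9% hold a match, and of 42 windows for the 33 Wnt genes with an entry, 11.9% do. Wnt2b lies at chr3:104961710-104961959 on the minus strand, Sfrp2 at chr3:83766071-83766320 on the plus strand and Rspo1 at chr4:124986180-124986429 on the plus strand.
Wnt2b: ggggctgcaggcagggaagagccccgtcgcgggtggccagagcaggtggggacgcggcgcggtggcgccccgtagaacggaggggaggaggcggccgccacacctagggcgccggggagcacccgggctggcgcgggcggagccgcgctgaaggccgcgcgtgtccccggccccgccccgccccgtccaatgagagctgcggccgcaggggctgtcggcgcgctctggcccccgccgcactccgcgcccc
Sfrp2: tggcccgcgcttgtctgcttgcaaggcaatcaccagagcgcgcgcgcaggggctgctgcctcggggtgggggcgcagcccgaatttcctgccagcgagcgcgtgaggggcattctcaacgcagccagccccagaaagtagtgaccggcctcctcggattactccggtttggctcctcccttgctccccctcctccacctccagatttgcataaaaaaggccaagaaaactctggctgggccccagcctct
Rspo1: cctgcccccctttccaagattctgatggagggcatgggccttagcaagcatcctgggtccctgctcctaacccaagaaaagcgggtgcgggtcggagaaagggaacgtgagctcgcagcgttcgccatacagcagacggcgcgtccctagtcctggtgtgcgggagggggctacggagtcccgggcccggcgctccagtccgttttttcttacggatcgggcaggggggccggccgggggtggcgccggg
The absence of these letters describes the window alone.

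The feedback and target genes, which canonical signalling is known to raise, did not separate the groups. None of the 7 had an unadjusted P under 0.05 or groups that did not overlap, beside 5.66% and 11.8% of all genes tested. With shares that low, 0 of 7 does not set these genes apart from other genes. Of the 7, 4 were above and 3 below 0, and the median log2 fold change was 0.04. Axin2, a scaffold of the destruction complex and the most used readout of canonical signalling, gave 23.0, 20.6 and 23.0 CPM in RAG1-/- and 18.6, 21.3 and 24.6 CPM in RAG1-/- Sgo1-/+ lungs. The libraries of the groups interleave. Its log2 fold change was -0.05 ± 0.17 (SE, n = 3 per group, edgeR unadjusted P = 0.759) with a 95% interval of -0.44 to 0.33. For 6 of the 7 the 95% interval lay within a 2-fold change in either direction.

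Nkd1, a Dishevelled-binding inhibitor, had the highest level of this role and gave 112, 85.7 and 83.5 CPM against 103, 87.4 and 86.1 CPM, with an interval of -0.36 to 0.31. Rnf43, a ubiquitin ligase that removes Frizzled from the surface, gave 34.7, 20.6 and 26.5 CPM against 32.1, 23.9 and 28.7 CPM, with an interval of -0.43 to 0.51. In both genes the highest library was RAG1-/- replicate 1, and the groups overlapped throughout. Its homologue Znrf3 had a log2 fold change of 0.05, Nkd2 of -0.31 and the TCF gene Tcf7 of 0.23. Lef1, a nuclear partner of β-catenin, was counted only 11, 3 and 5 times against 6, 6 and 3 times, and its interval of -1.27 to 1.93 includes 2-fold changes in either direction.

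Axin2 and Lef1 are both known targets of β-catenin with TCF/LEF, and their windows are shown with any match to the same letters in capitals. Axin2 lies at chr11:108920099-108920348 and Lef1 at chr3:131156044-131156293, both on the plus strand of GRCm38.p6. RefSeq start sites give 4 windows for Lef1. The Lef1 window shown was chosen because it holds a match. It lies downstream of the other Lef1 windows, which begin at 131110047, 131110073 and 131112541 and hold none.
Axin2: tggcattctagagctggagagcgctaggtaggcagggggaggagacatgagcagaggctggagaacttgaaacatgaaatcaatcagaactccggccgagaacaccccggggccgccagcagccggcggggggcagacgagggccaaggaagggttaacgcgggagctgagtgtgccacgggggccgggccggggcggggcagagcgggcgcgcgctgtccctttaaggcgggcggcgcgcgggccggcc
Lef1: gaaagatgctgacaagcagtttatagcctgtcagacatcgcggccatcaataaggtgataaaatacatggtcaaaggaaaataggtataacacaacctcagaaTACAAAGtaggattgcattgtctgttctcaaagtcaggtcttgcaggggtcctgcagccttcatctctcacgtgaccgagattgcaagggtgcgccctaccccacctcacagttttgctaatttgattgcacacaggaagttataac
The Axin2 window holds no match, and the Lef1 window holds TACAAAG, which begins 147 bases before the start. This difference rests on the choice of the Lef1 window. Of 11 windows for feedback and target genes, 1 holds a match. A match is a description of letters and no evidence of binding.

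Porcn, which adds the lipid that ligands need to leave the cell, gave 29.7, 20.6 and 14.7 CPM in RAG1-/- and 33.9, 32.2 and 30.3 CPM in RAG1-/- Sgo1-/+ lungs. The groups did not overlap, although RAG1-/- replicate 1 lay just under the lowest RAG1-/- Sgo1-/+ library. The log2 fold change was 0.56 ± 0.24 (SE, n = 3 per group, edgeR unadjusted P = 0.0384, adjusted P = 0.832), and it ranged from 0.34 without replicate 3 to 0.88 without replicate 1. Ctnnb1 gave 1342, 1247 and 1225 CPM against 1362, 1226 and 1215 CPM, and the groups overlapped. Its log2 fold change had a 95% interval of -0.27 to 0.26, the narrowest of the Wnt genes. Transcript level says nothing of the amount or location of β-catenin protein.

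A wider list of 88 other pathway genes was read the same way, and 76 passed the count filter. No gene of it passed an adjusted P of 0.05 with a 2-fold change, 7 of 76 (9.21%) had an unadjusted P under 0.05, and 12 (15.8%) had groups that did not overlap, beside 5.66% and 11.8% of all genes tested. The median log2 fold change was 0.04. Of the 7, Tnks, Tle3, Bcl9l, Dvl3 and Plaur had the higher value in RAG1-/- Sgo1-/+ lungs, and Tnfrsf19 and Ndp the lower. The number was 4 without replicate 2, 11 without replicate 4, and 6 without replicates 2 and 6 together. The share of all genes was not counted for these settings, so the shift cannot be read as one of the pathway. Plaur, the urokinase receptor gene, was at 64.3 CPM in replicate 6 and at 21.0 to 39.0 CPM elsewhere. Its log2 fold change of 0.60 was 0.29 without replicate 6, the library with the highest summed macrophage markers, none of which was at 0 in any library. The part of macrophages in the Plaur value was not tested.

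Tnks, a tankyrase that marks axin for degradation, was counted 154, 66 and 117 times in RAG1-/- and 142, 123 and 70 times in RAG1-/- Sgo1-/+ libraries. Scaled to depth, the means were 15.8 ± 2.25 and 24.4 ± 3.71 CPM (SD, n = 3 each), with a log2 fold change of 0.62 ± 0.19 (SE, edgeR unadjusted P = 0.00867, adjusted P = 0.832). The co-repressor Tle3 and the β-catenin co-factor Bcl9l had log2 fold changes of 0.38 and 0.39, and Dvl3, a Dishevelled that relays the signal from Frizzled, had 0.52. These genes act for and against the signal. Tnfrsf19, a receptor gene known as a target of the pathway, was at 43.4 ± 2.70 CPM against 32.7 ± 2.59 CPM (SD, n = 3 each), a log2 fold change of -0.41 ± 0.14 (SE, edgeR unadjusted P = 0.0133). Ndp, which encodes norrin, a ligand of Fzd4, was counted 10, 2 and 4 times in RAG1-/- and 0 times in each RAG1-/- Sgo1-/+ library, and its level is too close to the counting floor for a fold. Tspan12, the co-receptor of norrin, had a log2 fold change of -0.27 ± 0.13 (SE) and Fzd4 of 0.19.

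Ccnd1, the cyclin D1 gene, gave 242 ± 41.9 CPM against 273 ± 35.5 CPM (SD, n = 3 each), and its log2 fold change of 0.17 had a 95% interval of -0.18 to 0.52. Lif, a cytokine gene in the list of targets, was counted 109, 65 and 92 times against 56, 32 and 62 times, and its log2 fold change of -0.11 had a 95% interval of -0.92 to 0.69. In both genes the groups overlapped. The study's report of higher cyclin D1 and Lif1 transcripts came from quantitative PCR in other mice, Sgo1-/+ against wild type with RAG1 intact. Wnt10b, the most counted ligand outside the 10, had a log2 fold change of 0.49 ± 0.23 (SE, edgeR unadjusted P = 0.0618, n = 3 per group). Wnt1, Wnt8a and Wnt8b had 0 counts in all 6 libraries.

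**Figure D5:**
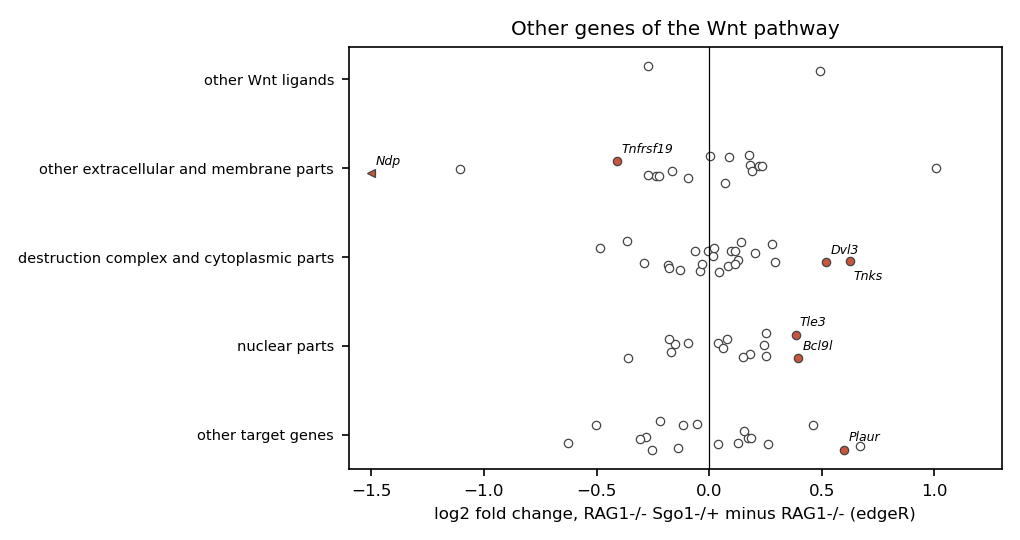
Log2 fold change (RAG1-/- Sgo1-/+ minus RAG1-/-) of the 76 tested genes of the wider pathway list, 1 point per gene, by part of the pathway, with vertical jitter for legibility. Filled points are the 7 genes with an unadjusted P under 0.05, and Ndp is drawn as an arrow at the edge because its fitted value of -5.08 lies off the axis.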

How the data were processed

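Total RNA of 6 mouse lungs was extracted with Trizol, made into libraries with the TruSeq V2 kit, which does not keep strand, and sequenced on a MiSeq as paired reads, per the labels and the study's methods. The deposited values are raw counts per gene, made by the authors with BWA and GeneSifter on mouse build 37.2 (file header). Aligner settings are not given in the sources used here. Each library's column is deposited with identical values in a second copy, and 1 copy was used. Gene IDs were matched to symbols for 24048 of 25860 genes (93.0%).

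Genes with at least 10 counts in sum were tested with edgeR 4.0.16 in R 4.3.3 (quasi-likelihood, total count as library size, Benjamini-Hochberg over 17231 genes). SE is the log2 fold change over the root of F. A gene was called at an adjusted P under 0.05 and at least 2-fold. The fit was tested on simulated data, in which 32% of 200 genes changed 2-fold were called, and 92.5% of 200 changed 4-fold. The changed genes were drawn from those with more counts. Some unchanged genes were also called, and with the 4-fold changes they fell under an unadjusted P of 0.05 more often than that level. A gene that was not called is therefore not shown to be unchanged. DESeq2 1.42.0, limma 3.58.1 (voom), TMM, other filters, halved counts and leaving out libraries were alternatives, and leaving out replicates 2 and 6 together was chosen after seeing the data. Exon lengths came from GENCODE M21 and promoters from RefSeq, both on GRCm38, so no coordinates are tied to counts. Counting intervals cover counting error only. Genes named are those with an unadjusted P under 0.05 or groups that did not overlap, defining members of each role, and those chosen after their values were seen as stated. The members and lists were chosen with earlier results of these data known. The P values of the fits set the difference between groups against the variation between mice, which is estimated in part from other genes.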

Additional observations from a re-analysis of the deposited data

How the results depend on the processing

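No paired analysis was made because the labels give no litter, cage or other pairing of the mice. No Wnt gene was called under any of 14 alternatives to the edgeR test, in which the smallest adjusted P of a Wnt gene was 0.570. The direction of the log2 fold change was kept by 19 of 44 in every alternative that fitted the gene. Genes with few counts, such as Fzd10 and Sfrp5, fell under the count filter in some alternatives. The number of Wnt genes with an unadjusted P under 0.05 was 5, and it was 3 by DESeq2, 2 without replicates 2 and 6, and 2 to 6 with 1 library left out (Sfrp4 and Rspo3 without replicate 2, and Wnt9a, Sfrp4 and Rspo3 without replicate 5). With at least 2-fold as well it was 2, and 1 with filterByExpr, 1 without replicates 2 and 6, and 2 to 3 with 1 library left out. Groups that did not overlap numbered 6, and 7 to 13 with 1 library left out. With fewer libraries in a group any gene meets this rule more easily. The share over all genes was not counted for those settings, so the rise is no result about Wnt genes. Over all genes 0 were called by edgeR, 1 by DESeq2, and 0 to 1 with 1 library left out (1 without replicate 5), beside 976 at an unadjusted P under 0.05. In the wider pathway list the number with an unadjusted P under 0.05 was 7, and 4 to 11 with 1 library left out (4 without replicate 2, 11 without replicate 4). The share of all genes under that unadjusted P was not counted for the alternatives, so their numbers have no background beside them.

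Log2 fold changes that changed sign were near 0 or varied much between libraries. Limma-voom gave 0.59 for Wnt2b, 0.11 for Sfrp1, 1.04 for Sfrp2, 0.20 for Rspo1, -0.012 for Fzd5 and -0.040 for Lgr4. TMM gave -0.023 for Fzd5 and -0.022 for Lgr4, DESeq2 size factors -0.018 and -0.016, and the DESeq2 test -0.018 and -0.014. Halved counts gave 0.0086 for Wnt2b and -0.0093 for Lgr4. Without replicates 2 and 6 the values were 0.020 for Wnt2, -0.10 for Wnt7b, -0.042 for Fzd5, -0.33 for Lgr4, 0.070 for Lgr5, 0.028 for Wif1, -0.13 for Rnf43 and 0.012 for Ctnnb1. With 1 library left out the ranges were -0.57 to 1.08 for Wnt2b, -0.14 to 0.51 for Wnt3a, -0.057 to 0.35 for Wnt5a, -0.10 to 0.33 for Wnt7a, -0.60 to 0.031 for Fzd2, -0.076 to 0.21 for Fzd3, -0.069 to 0.46 for Fzd4, -0.20 to 0.11 for Fzd5, -0.01 to 0.20 for Fzd6, -0.17 to 0.35 for Fzd8, -0.22 to 0.17 for Lgr4 and -0.75 to 0.19 for Ror2. They were -0.67 to 0.26 for Sfrp1, -0.66 to 0.50 for Sfrp2, -0.99 to 0.94 for Dkk2, -0.59 to 0.36 for Rspo1, -0.16 to 0.041 for Axin2, -0.11 to 0.12 for Nkd1, -0.21 to 0.30 for Znrf3, -0.12 to 0.26 for Rnf43 and -0.059 to 0.037 for Ctnnb1. The cause of these changes was not tested.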

Other observations

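The library order with RAG1-/- replicate 1 lowest and RAG1-/- Sgo1-/+ replicate 5 next, without a limit on the size of the gap, was found for 7 of 44 Wnt genes (15.9%) and 3.41% of all genes tested. Beside Sfrp1, Sfrp2, Rspo1 and Wnt2b these were Wnt2, Wnt5b and Wnt9a. The order was picked after the values were seen, so the shares are no test. Gpc3, a glypican that binds Wnt ligands and Frizzled at the cell surface, was not among the 49 genes and was picked after its values were seen. It gave 63.8, 569 and 696 CPM in RAG1-/- and 398, 223 and 518 CPM in RAG1-/- Sgo1-/+ lungs, with the same 2 libraries lowest. Wls, which carries ligands to the cell surface, was at 221 ± 21.9 CPM against 207 ± 42.8 CPM (SD, n = 3 each), and its log2 fold change of -0.09 had a 95% interval of -0.45 to 0.27.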
